A study of Rattus norvegicus with 6 samples.

Results

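The Zfp-named zinc finger genes were compared between Nono-KO and WT rat H9c2 cells by RNA-seq. They were taken by name alone, as every symbol made of Zfp and a number, without Zfp36, and 226 of the 16319 genes in the count table qualified. The H9c2 line was derived from the heart of a rat embryo and has features of myoblasts. The Nono-KO cells are H9c2 cells carrying a Nono gene knockout, made with CRISPR-Cas9 and a guide that left a short deletion in a coding exon, and selected with puromycin. Nono encodes a nuclear RNA- and DNA-binding protein of paraspeckles. The WT cells are H9c2 cells labelled as wild type, and both groups were grown in the same serum-containing medium. Each group has 3 libraries, named KO1 to KO3 and WT1 to WT3. They are described as biological replicates, but the number of knockout clones behind them and their separate culture were not found in the labels or methods. The p-values therefore cover the spread among these 6 libraries, which may be technical, and an effect of the knockout and a difference between cell lines cannot be told apart.

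Most Zfp genes encode proteins with C2H2 zinc fingers, small folds held by a zinc ion that read DNA, in rows that set the sequence bound. Many carry a KRAB domain, which recruits Trim28 and, through it, the histone methyltransferase Setdb1 and heterochromatin protein, and such proteins are known for silencing retroelements and keeping imprints. KRAB zinc finger genes lie in clusters made by duplication and are mostly transcribed at low levels. The name covers other proteins too, since some Zfp genes encode activators, RNA-binding proteins, ubiquitin ligases or mitotic factors.

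The promoters of 7 Zfp genes are printed here. They belong to 5 neighbouring genes of chromosome 8 that all fell, and to Zfp407 and Zfp428, which had the largest fitted fall and rise. In some alternative analyses Zfp52 had the largest fall among the genes named by rule, the only ones ranked there. Each window runs from 100 bases before to 25 bases after the most upstream annotated start, 5′ to 3′ on the gene's strand, from RefSeq on GRCr8, which is another build than that of the counts. Capitals mark an ETS factor motif (CCGGAAG), a cAMP response element (CRE, TGACGTCA) or the core of the motif of Zfp143 (ACTACAA), searched on both strands.
Zfp560 (chr8:27190665-27190789, minus strand): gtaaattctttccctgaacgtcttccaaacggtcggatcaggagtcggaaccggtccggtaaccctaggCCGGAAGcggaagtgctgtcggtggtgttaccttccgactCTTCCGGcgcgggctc
Zfp26 (chr8:27261625-27261749, minus strand): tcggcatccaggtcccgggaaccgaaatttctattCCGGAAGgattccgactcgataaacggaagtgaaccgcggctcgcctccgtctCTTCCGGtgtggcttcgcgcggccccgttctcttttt
Zfp426 (chr8:27305033-27305157, minus strand): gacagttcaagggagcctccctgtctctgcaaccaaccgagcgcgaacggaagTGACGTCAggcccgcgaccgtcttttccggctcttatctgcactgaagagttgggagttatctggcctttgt
Zfp266 (chr8:27337515-27337639, minus strand): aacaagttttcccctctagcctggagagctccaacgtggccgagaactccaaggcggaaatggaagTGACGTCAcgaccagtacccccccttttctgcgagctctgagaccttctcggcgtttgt
Zfp846 (chr8:27396211-27396335, plus strand): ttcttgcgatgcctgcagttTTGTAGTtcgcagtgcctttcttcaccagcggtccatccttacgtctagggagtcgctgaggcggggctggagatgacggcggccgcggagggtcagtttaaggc
Zfp407 (chr18:80245082-80245206, minus strand): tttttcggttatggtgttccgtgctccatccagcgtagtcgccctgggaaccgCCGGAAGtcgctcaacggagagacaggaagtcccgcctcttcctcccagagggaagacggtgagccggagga
Zfp428 (chr1:89227342-89227466, plus strand): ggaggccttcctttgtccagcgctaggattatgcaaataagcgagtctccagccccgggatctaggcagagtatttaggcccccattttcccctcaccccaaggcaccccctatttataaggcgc
The window of Zfp428 holds none of the 3 motifs.

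Library totals were 17612958 to 18770188 counts in Nono-KO cells and 18138400 to 19253858 counts in WT cells. Nono itself had 109, 94 and 96 counts in KO1 to KO3, against 7329, 5884 and 5519 counts in WT1 to WT3, so that the libraries fit their labels. Of the marker lists examined, the summed level of 6 smooth muscle genes was 14591 to 15673 CPM in Nono-KO cells and 6636 to 7491 CPM in WT cells, and 5 of the 6 rose. That sum was mostly Acta2 (log2 fold change 1.13), while Lmod1 (3.49) and Myh11 (3.37) rose more and Smtn (-0.04) did not pass. The 3 measured skeletal myoblast markers summed to 330 to 366 CPM in Nono-KO cells and 143 to 174 CPM in WT cells, and 2 of the 3 rose. These were Myog (4.03) and Des (2.13), while Myod1 (0.26), the highest of the 3 in CPM, did not pass. The 8 fibroblast markers summed to 28839 to 33960 CPM in Nono-KO cells and 37362 to 45205 CPM in WT cells, mostly from Col1a1 and Col1a2. Of the 5 tested, 3 fell, while Thy1 rose (log2 fold change 0.33) and Col3a1 did not pass. Dcn, Lum and Pdgfra had too few counts to be tested. The 8 cardiomyocyte markers summed to 154 to 179 CPM in Nono-KO cells and 33.2 to 109 CPM in WT cells, and 1 of the 3 tested rose. Of these, Tnnt2 did not pass, with 111, 135 and 137 CPM in Nono-KO cells, against 13.4, 78.0 and 83.0 CPM in WT cells. The 2 measured macrophage markers summed to 1.29 to 1.78 CPM in Nono-KO cells and 3.28 to 6.47 CPM in WT cells, and 1 of them fell. The 3 measured endothelial markers were at or below 0.398 CPM in sum in every library. The part of these shifts in the Zfp results was not tested. In bulk RNA, fewer cells of a type and less RNA per cell cannot be told apart.

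Counts of Zfp genes were lower as a whole in Nono-KO cells. They made up 0.288%, 0.285% and 0.298% of all counts in KO1 to KO3, against 0.333%, 0.352% and 0.352% in WT1 to WT3, and no Nono-KO library reached a WT library. Without Zfp469, the member with the most counts, the shares were 0.278%, 0.275% and 0.289% in Nono-KO cells and 0.302%, 0.317% and 0.314% in WT cells. Of the 226 genes, 192 passed the filter on low counts and were tested. A gene is said to have risen or fallen where the quasi-likelihood test of edgeR gave a p under 0.05 after Benjamini-Hochberg adjustment over all 12028 genes tested. Log2 fold changes are Nono-KO over WT.

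Of the tested Zfp genes, 85 (44.3%) fell, where 38.1% of all tested genes fell. A smaller number, 33 (17.2%), rose, where 34.2% of all tested genes rose. The other 74 did not pass. The median log2 fold change of the tested Zfp genes was -0.38 (quartiles -0.98 and 0.11), and that of all tested genes was -0.05. The share of falls was thus somewhat above that of all genes, and the share of rises below it. By the stricter rule for differentially expressed genes (DEGs), which asks for an adjusted p under 0.01 and a log2 fold change over 1 or under -1, 4 Zfp genes (2.08%) were higher in Nono-KO cells, where 10.8% of all tested genes were. By the same rule 45 Zfp genes (23.4%) were lower in Nono-KO cells, where 18.7% of all tested genes were. With the fold threshold built into the test (glmTreat), at the looser adjusted p under 0.05, the counts were 1 higher and 22 lower. All 3 Nono-KO libraries lay above all 3 WT libraries for 38 Zfp genes (19.8%), against 36.1% of all tested genes. They lay below for 90 Zfp genes (46.9%), against 39.0% of all tested genes, and the groups overlapped for 64. These shares describe the list and were not tested against other genes.

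The direction varied with the level. Among the 64 tested Zfp genes with the lowest mean CPM, up to 3.36 CPM over the 6 libraries, 28 fell and 1 rose, with a median log2 fold change of -0.56. Of the 2069 genes of any name in that range of CPM, 602 fell and 625 rose, with a median of 0.04. In the middle 64, up to 16.7 CPM, 34 fell and 11 rose, and the median was -0.50. Genes of any name in this middle range also fell more often than they rose, 1537 against 795 of 3183, with a median of -0.35. In the upper 64 the counts were near balance, with 23 falls and 21 rises and a median of -0.04, and of 6776 genes of any name at those levels 2439 fell and 2688 rose, with a median of 0.04. By these medians the Zfp genes lay farthest from other genes of like CPM in the lowest range, a difference that was not tested. Counts were not divided by transcript length, so that these ranges of CPM order genes by counts, which grow with length, and not by transcript number.

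**Figure D1:**
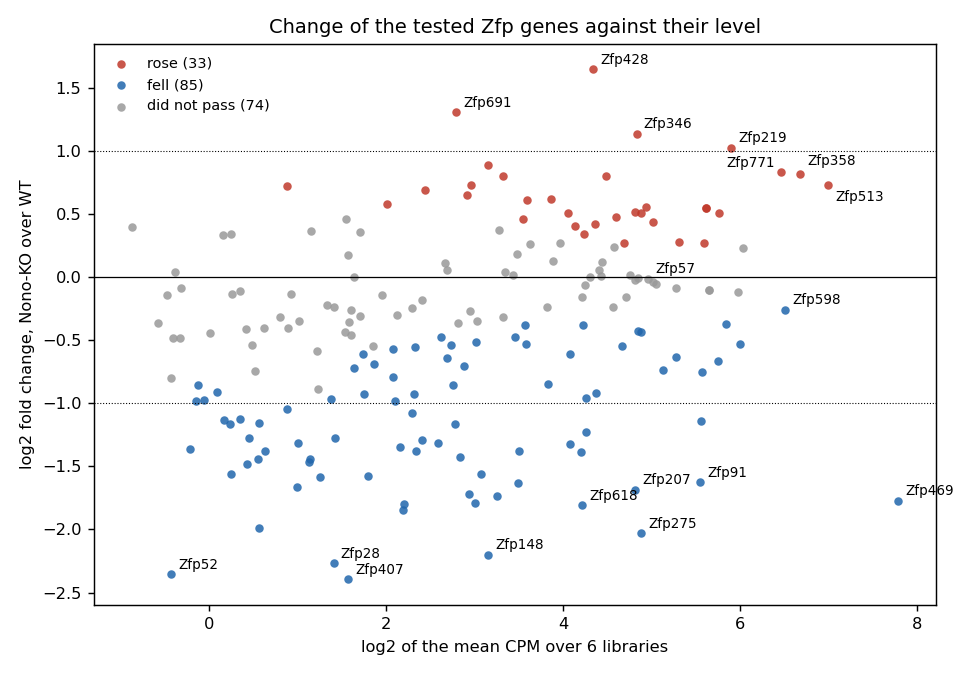
Log2 fold change of Nono-KO over WT (vertical axis) by level, the log2 of the 6-library mean CPM (horizontal axis), for the 192 tested Zfp genes, each a point coloured by whether it rose (33), fell (85) or did not pass. Dotted lines mark log2 fold changes of 1 and -1, and the 4 red points above the upper line are Zfp428, Zfp691, Zfp346 and Zfp219.

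Zfp407 had the largest fitted fall of the tested Zfp genes. In the 13 alternative analyses only the 68 tested genes named by rule were ranked. Among those, Zfp407 had the largest fall in 8 and Zfp52 in the other 5. Zfp407 had 17, 19 and 15 counts in KO1 to KO3, against 82, 103 and 98 counts in WT1 to WT3 (log2 fold change -2.39 with a standard error of 0.25, edgeR adjusted p = 4.94e-06). Zfp407 is a protein with many zinc fingers, studied in mouse fat cells. The groups lay far apart for Zfp148 as well, a factor that binds GC-rich promoters, with 3.22, 2.56 and 3.71 CPM in Nono-KO cells, against 10.1, 19.8 and 13.9 CPM in WT cells (log2 fold change -2.20, standard error 0.25). Zfp275 had 11.8, 10.6 and 12.4 CPM in Nono-KO cells, against 39.1, 47.7 and 55.5 CPM in WT cells (log2 fold change -2.03). In each of these genes the highest Nono-KO library was well under the lowest WT library. Zfp281, a pluripotency regulator of mouse embryonic stem cells, had 2.98, 3.51 and 4.24 CPM in Nono-KO cells, against 9.45, 14.9 and 13 CPM in WT cells (log2 fold change -1.79).

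Zfp469 stood out by its number of counts. Mutations of its human ortholog cause a disorder of the cornea and connective tissue. It had 103, 103 and 92.2 CPM in KO1 to KO3, against 296, 341 and 381 CPM in WT1 to WT3 (log2 fold change -1.77 with a standard error of 0.10, edgeR adjusted p = 1.15e-07). It was the Zfp gene with the most counts in WT cells, but not in Nono-KO cells, where Zfp513, Zfp358 and Zfp771 had more. The other genes among the 12 largest falls were Zfp52, Zfp28, Zfp17, Zfp367, Zfp618, Zfp800 and Zfp236, with log2 fold changes from -2.35 to -1.73. Their groups did not overlap, which the rule for the 12 required. Several of them rest on few counts. Zfp52 had 1, 3 and 9 counts in Nono-KO cells, against 17, 36 and 18 counts in WT cells, and its fitted fold change (standard error 0.55) is correspondingly loose. It passed the filter on low counts only through its WT libraries, so that its place among the falls depends in part on that filter.

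Zfp428 had the largest rise. It had 33.2, 31.2 and 27.7 CPM in Nono-KO cells, against 11.1, 8.13 and 10.1 CPM in WT cells (log2 fold change 1.64 with a standard error of 0.14, edgeR adjusted p = 1.26e-06). Zfp691 had 10.2, 10.2 and 9.21 CPM in Nono-KO cells, against 4.13, 3.80 and 4.01 CPM in WT cells (log2 fold change 1.31). For both genes the spread within a group was small beside the gap. Zfp346, whose protein binds double-stranded RNA rather than a DNA sequence, had 40.6, 41.9 and 34.8 CPM in Nono-KO cells, against 17.7, 16.9 and 18.8 CPM in WT cells (log2 fold change 1.14). Zfp219, a transcription factor, had 79.3, 81.8 and 77.9 CPM in Nono-KO cells, against 38.3, 38.3 and 40.9 CPM in WT cells (log2 fold change 1.02). These 4 are the higher DEGs of the list. Of them, 1 was left with glmTreat at an adjusted p under 0.05, and 3 with total counts or with no filter on low counts.

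The other genes among the 12 largest rises were Zfp580, Zfp771, Zfp358, Zfp174, Zfp523, Zfp513, Zfp446 and Zfp949, with log2 fold changes from 0.89 down to 0.72. The call of Zfp949, at 0.72, was lost with DESeq2 and without Nono-KO replicate 1 (adjusted p of up to 0.0654 over the alternatives). Zfp523 is the nearest relative of Zfp143, and it moved the other way. It had 28.3, 28.2 and 28.6 CPM in Nono-KO cells, against 18.3, 15.1 and 15.5 CPM in WT cells. Of the 10 Zfp genes with the most counts, 4 rose (Zfp219, Zfp771, Zfp358 and Zfp513), 4 fell (Zfp469, Zfp598, Zfp384 and Zfp335) and Zfp282 and Zfp496 did not pass. Zfp513 had 163, 157 and 156 CPM in Nono-KO cells, against 90.8, 96.2 and 100.3 CPM in WT cells. Zfp358 had 137, 131 and 123 CPM in Nono-KO cells, against 71.4, 70.2 and 80.6 CPM in WT cells. Both were higher in every Nono-KO library.

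**Figure D2:**
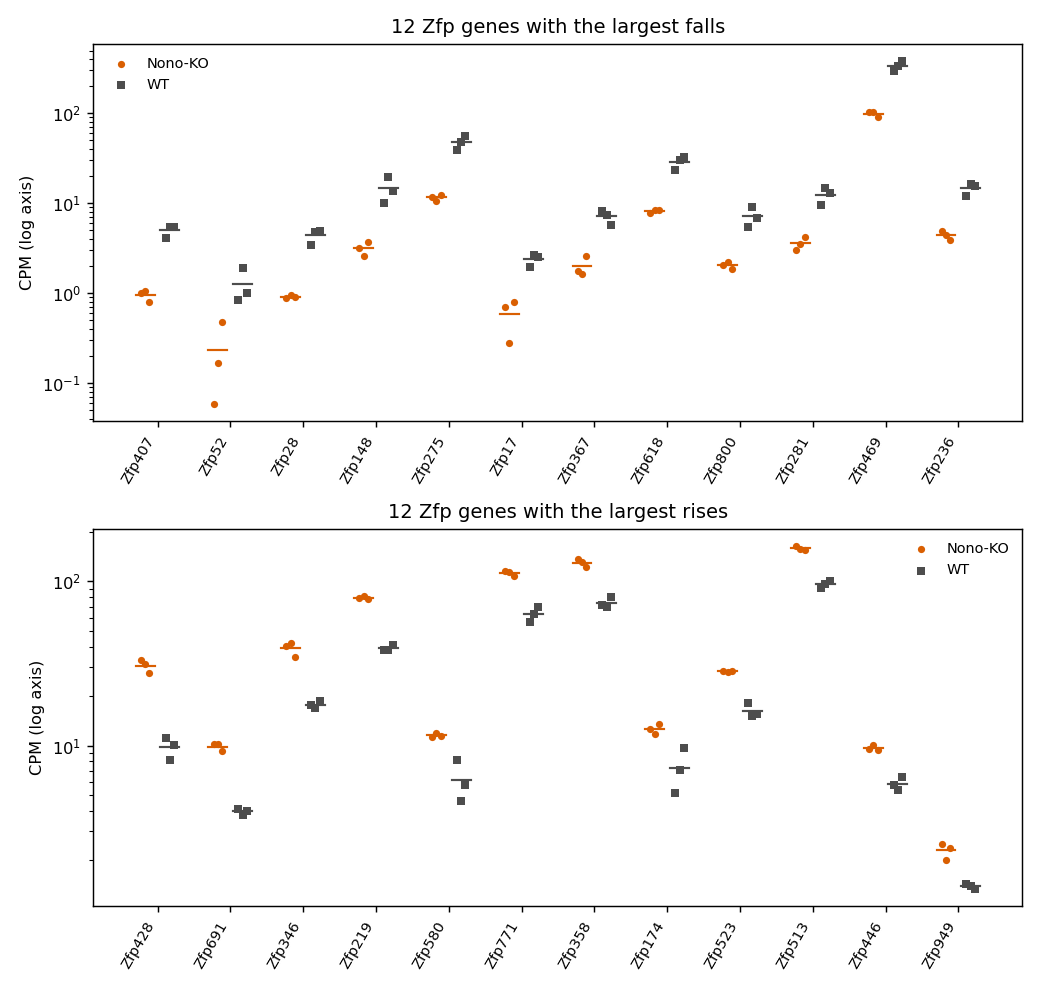
CPM in each library (log axis) of the 12 Zfp genes with the largest falls (upper panel) and the 12 with the largest rises (lower panel), with orange circles for the 3 Nono-KO libraries left of grey squares for the 3 WT libraries and a bar at each mean. No group overlaps the other in any of the 24 genes, as the rule that chose them asked, and Zfp469 is the highest of the upper panel, at a mean of 99.4 CPM in Nono-KO cells and 339 CPM in WT cells.

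A list of 39 Zfp genes with a known role was written by role. Of these, 34 were tested, and 22 fell, 5 rose and 7 did not pass, where 38.1% of all tested genes fell and 34.2% rose. Of the imprinting factors, Zfp57, a KRAB protein that protects methylated imprints in the mouse, had 30.2, 29.8 and 32.6 CPM in Nono-KO cells, against 29.6, 31.7 and 32.2 CPM in WT cells. Its log2 fold change was -0.01 (standard error 0.10), and the groups overlapped. Zfp445, the other imprinting factor, fell, with 1.81, 0.946 and 1.91 CPM in Nono-KO cells, against 2.09, 5.08 and 4.23 CPM in WT cells (log2 fold change -1.28, standard error 0.36). Its counts were low and its groups were nearly touching. Zfp819, which was linked to the silencing of retroelements in the mouse, fell (log2 fold change -1.16, adjusted p = 0.0129 from edgeR), at 8 to 20 counts in Nono-KO cells and 26 to 41 counts in WT cells. That call was lost without Nono-KO replicate 2 or 3, with an adjusted p of up to 0.067 from edgeR.

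All 4 genes of promoter and chromatin architecture fell. Zfp143, which binds promoters and loop anchors, had 3.10, 2.17 and 3.92 CPM in Nono-KO cells, against 7.26, 7.43 and 7.85 CPM in WT cells (log2 fold change -1.29, standard error 0.21). The change was smaller in Zfp384 (-0.53), Zfp410 (-0.44), which is known as an activator of Chd4, and Zfp335 (-0.37). Without Nono-KO replicate 3 or WT replicate 3 the call of Zfp335 was lost, with an adjusted p of up to 0.0568 from edgeR. In the stem cell group, Zfp462 fell along with Zfp281, by 1.08 on the log2 scale. Chd4, the target of Zfp410, had 343, 359 and 342 CPM in Nono-KO cells, against 399, 351 and 404 CPM in WT cells, and did not pass (log2 fold change -0.15).

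Among genes of mesenchymal and fat cell fate, Zfp467, which promotes fat cell formation in the mouse, rose, with 18.1, 17 and 17.8 CPM in Nono-KO cells, against 14.3, 9.62 and 10.4 CPM in WT cells (log2 fold change 0.62). Zfp217, a factor amplified in human tumours, fell by 0.55 on the log2 scale. Zfp516, a factor of brown fat in the mouse, rose by 0.27 on the log2 scale, a call that was lost in 6 of 13 alternative analyses, with an adjusted p of up to 0.0931 from edgeR. Zfp521 did not pass (log2 fold change -0.35, standard error 0.17). The genes linked to muscle and heart fell. Zfp106, an RNA-binding protein needed for motor neurons and muscle in the mouse, had 27.4, 28.7 and 32.2 CPM in Nono-KO cells, against 57.9, 67.7 and 69.1 CPM in WT cells (log2 fold change -1.14, standard error 0.11). Zfp260, a factor known from heart muscle cells, fell by 0.98 on the log2 scale, beside the larger fall of Zfp148.

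The corepressors did not move one way. Zfp703 had 57.2, 61.8 and 55.0 CPM in Nono-KO cells, against 33.3, 37.3 and 48.9 CPM in WT cells, and rose (log2 fold change 0.54). Its relative Zfp503 fell, with 8.54, 10.4 and 8.63 CPM in Nono-KO cells, against 12.2, 12.7 and 13.5 CPM in WT cells (log2 fold change -0.48). The groups of both genes were separate, while the call of Zfp503 was lost without Nono-KO replicate 1 (adjusted p = 0.0528 from edgeR). Zfp638, a nuclear RNA-binding protein that silences unintegrated viral DNA, had 1.87, 1.39 and 1.96 CPM in Nono-KO cells, against 4.18, 8.18 and 3.28 CPM in WT cells (log2 fold change -1.58). WT2 was far above the other WT libraries in this gene.

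Of the genes that act outside transcription, Zfp207, which brings Bub3 to kinetochores, had 12.8, 11.2 and 15.9 CPM in Nono-KO cells, against 33.5, 49.1 and 46.0 CPM in WT cells (log2 fold change -1.69, standard error 0.17). Zfp91, a ubiquitin ligase, had 22.3, 21.8 and 24.4 CPM in Nono-KO cells, against 59.3, 75.9 and 76.6 CPM in WT cells (log2 fold change -1.63, standard error 0.12). Both fell well past the spread of their libraries. The ribosome factors moved little. Zfp598, a ubiquitin ligase for collided ribosomes, fell by 0.26 on the log2 scale, a call lost in 5 of 13 alternative analyses (adjusted p of up to 0.0756 from edgeR). Zfp622, a factor in making the large ribosomal subunit, did not pass (log2 fold change -0.01, standard error 0.10). Zfp326 (-0.18), Zfp365 (0.01) and Zfp830 (0.04), known from RNA processing and genome stability, did not pass either.

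Zfp592 and Zfp687, which are known as partners in a chromatin complex, went opposite ways. Zfp592 had 25.5, 26.2 and 26.7 CPM in Nono-KO cells, against 40.2, 40.3 and 50.5 CPM in WT cells (log2 fold change -0.74). Zfp687 had 41.8, 45.9 and 42.4 CPM in Nono-KO cells, against 35.6, 32.9 and 38.8 CPM in WT cells (log2 fold change 0.28, adjusted p = 0.023 from edgeR). The rise of Zfp687 was the less firm of the pair, as its call was lost in 4 of 13 alternative analyses, with an adjusted p of up to 0.0974 from edgeR. The other genes of the list that fell were Zfp318 (-1.63), Zfp131 (-1.42) and Zfp110 (-0.93), and Zfp292 (-0.53) did not pass.

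Neighbouring genes were examined next, by their order in the RefSeq annotation of GRCr8, where 223 of the 226 symbols matched. Of these, 66 lay in 27 runs of at least 2 such genes with no other protein-coding gene between them. A Zfp gene without a row in the count table ended a run. By this rule the run on chromosome 8 and the run on chromosome 4 were the longest, with 5 genes each. On chromosome 8, all 5 genes fell, where 44.3% of all tested Zfp genes and 38.1% of all tested genes fell. Zfp266 had 6.02, 5.45 and 7.31 CPM in Nono-KO cells, against 11.9, 17.8 and 19.3 CPM in WT cells (log2 fold change -1.38, standard error 0.20). Zfp26 had 17, 18 and 16 counts in Nono-KO cells, against 47, 77 and 47 counts in WT cells (log2 fold change -1.67). Zfp560 had 15, 14 and 14 counts in Nono-KO cells, against 37, 44 and 29 counts in WT cells (log2 fold change -1.27). Zfp426 and Zfp266 had the same log2 fold change, -1.38. Zfp846, on the opposite strand, changed least, by -0.61, and its call was lost with DESeq2 and without Nono-KO replicate 1 (adjusted p of up to 0.0812 over the alternatives). Genes of such a cluster are similar in sequence, and the way shared reads were counted was not found in the labels or methods, so that their values may not be independent.

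The 2 nearest protein-coding genes on the far side of Zfp846 did not share the fall, as Fbxl12 (0.30) and Ubl5 (0.65) rose. The 2 nearest protein-coding genes on the other side are olfactory receptors without a row in the table. On chromosome 4, Zfp398 fell (log2 fold change -0.54, a call lost without Nono-KO replicate 1, adjusted p = 0.054 from edgeR), while Zfp786 (-0.14), Zfp282 (0.23), Zfp212 (0.01) and Zfp956 (0.37) did not pass. Zfp282 had 73.9, 72.9 and 65.4 CPM in Nono-KO cells, against 63.9, 53.6 and 63.4 CPM in WT cells, higher in every Nono-KO library but with an adjusted p of 0.0532 from edgeR. The adjusted p of Zfp282 was under 0.05 in 5 of 13 alternative analyses, and that of Zfp956 in 3. Of the next longest, at 4 genes each, the run on chromosome 16 had 2 falls (Zfp868 at -1.59 and Zfp869 at -0.93) beside Zfp866 (-0.09), which did not pass. The run of Zfp51 to Zfp54 on chromosome 1 had 1 tested gene, Zfp52. It lay between Zfp677 and Zfp948, which have no row in the table. Of the 19 runs with at least 2 tested genes, 3 had all of them fall, 2 had all of them rise and 1 had both directions. Most of these runs are pairs, and 44.3% of all tested Zfp genes fell and 17.2% rose. Whether neighbours shared a direction more often than these shares give was not tested.

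**Figure D3:**
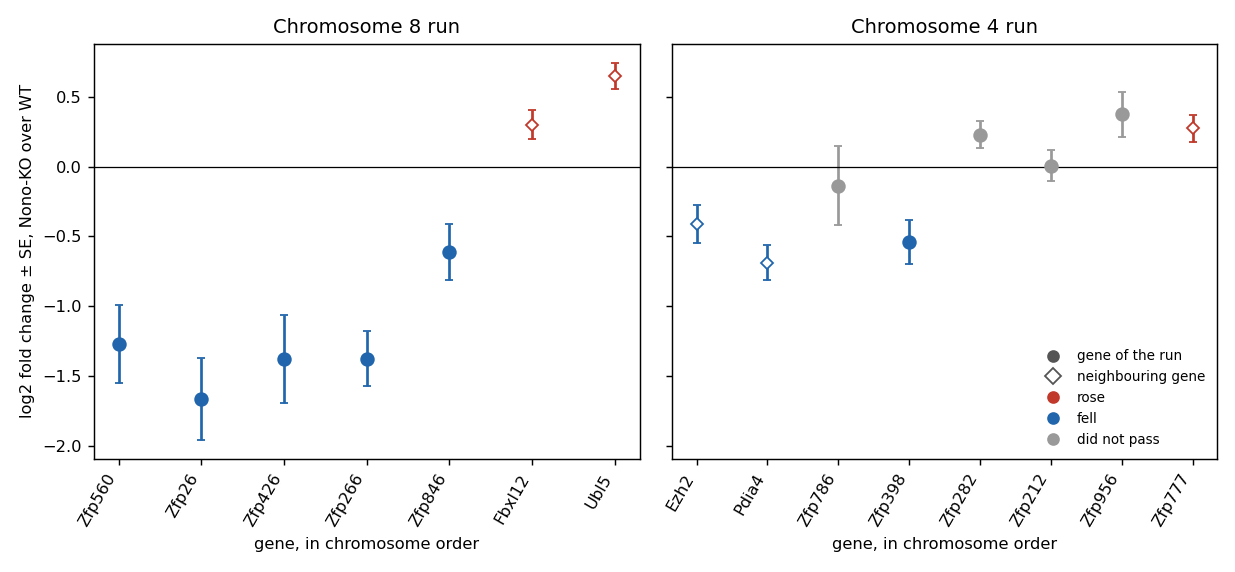
Log2 fold change of Nono-KO over WT with its standard error (vertical axis) for genes in chromosome order (horizontal axis, not to scale). Shown are the chromosome 8 run, the chromosome 4 run and the tested ones among the 2 nearest protein-coding genes on each side. Filled circles are genes of the run and open diamonds are neighbours. The 5 genes of the chromosome 8 run lie between -1.67 and -0.61 and the neighbours after them at 0.30 and 0.65, while the chromosome 4 run lies between -0.54 and 0.37. Zfp777 is also a Zfp gene but has another gene between it and the run.

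Counts by chromosome are given beside those of all tested genes placed on it. Chromosome 1 held the most Zfp genes, 58, and of its 46 tested genes 14 fell and 14 rose, with a median log2 fold change of -0.13, where 31.0% of all tested genes of that chromosome fell and 44.6% rose, with a median of 0.19. Chromosomes 10 and 4 held 18 each. On chromosome 10, 4 of 14 tested Zfp genes fell and 3 rose, with a median of -0.18. Of all its tested genes 27.9% fell and 46.1% rose, with a median of 0.22. On chromosome 4, 6 of 18 tested Zfp genes fell and 2 rose, with a median of -0.11. Of all its tested genes 43.2% fell and 27.5% rose, with a median of -0.18. Chromosome 7 held 14, and 4 of 11 tested Zfp genes fell and 2 rose, with a median of -0.35. Of all its tested genes 31.7% fell and 46.5% rose, with a median of 0.23. Chromosome 8 held 13, all tested, and 10 of them fell and 1 rose, with a median of -0.91, where 40.1% of all tested genes of chromosome 8 fell and 33.7% rose, with a median of -0.10. The 5 genes of the run above are among these 10 falls. On chromosome 2, 6 of 8 tested genes fell and 1 rose, with a median of -1.43, where 51.6% of all its tested genes fell and 21.4% rose, with a median of -0.39. The other chromosomes are not given here. Neighbouring members are not independent, and these counts were not tested.

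Promoter letters were then read for the 189 Zfp genes that matched the promoter table, in windows of 300 bases. Of these, 161 belong to tested genes, and their median GC content was 57.7%, against 61.0% over the promoters of all tested genes. The GC box (GGGCGG) was in 77 of the 161 (47.8%), against 63.5% of the promoters of all tested genes. The Zfp143 core was in 17 of the 161 (10.6%), against 4.54%. These shares are a description and were not tested. Besides these and the ETS motif and CRE, the letters CACGTG (E-box), AAGATGG (Yy1), GCGCATGCG (Nrf1), CCAAT and TATAAA were searched, on both strands, and matches of different motifs may overlap.

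Among the 9 motifs, the ETS letters differed most between Zfp genes that fell and those that rose or did not pass, and they were singled out after these values were seen. They were in 22 of 72 promoters of Zfp genes that fell (30.6%), in 3 of 28 of those that rose (10.7%) and in 8 of 61 of those that did not pass (13.1%). Over all tested genes the letters were in 18.7% of promoters, and in 18.9% of those that fell and 17.7% of those that rose. The share over all 27457 promoters of the table was 9.21%. Of the 33 tested Zfp genes with the letters, 22 fell (66.7%) and the median log2 fold change was -0.69. Of the 128 without them, 50 fell (39.1%) and the median was -0.26. Genes of any name fell in 39.3% of cases with the letters and 38.9% without them.

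Level moved with the letters, as the median was 3.63 CPM, not divided by length, in Zfp genes with them and 7.33 CPM in those without, and its part in the result was not tested. Within the 3 ranges of level, 9 of 16 genes with the letters fell in the lowest range, against 17 of 41 without. In the middle range 7 of 8 with the letters fell, against 22 of 46 without, and in the upper range 6 of 9 fell, against 11 of 41 without. These groups are small, at 8 to 46 genes. With the 6 letters CGGAAG in their place, 33 of 58 genes fell (56.9%), against 39 of 103 without them (37.9%), an alternative chosen after seeing the data. Every gene with the ETS letters also has these 6, so that this is no independent check. Zfp560 and Zfp26 each had the ETS letters at 2 places within the printed windows, and Zfp407 had them at 47 bases before the start, with a second match at 216 bases before it, outside the window. The CRE was in 4 of the 161 promoters of tested Zfp genes (2.48%), against 3.34% of the promoters of all tested genes. The neighbours Zfp426 and Zfp266, which fell, were among the 4. The others were Zfp593 (log2 fold change -0.02) and Zfp605 (-0.41), which did not pass. A match of letters is no proof that a factor binds there, and no test was made.

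**Figure D4:**
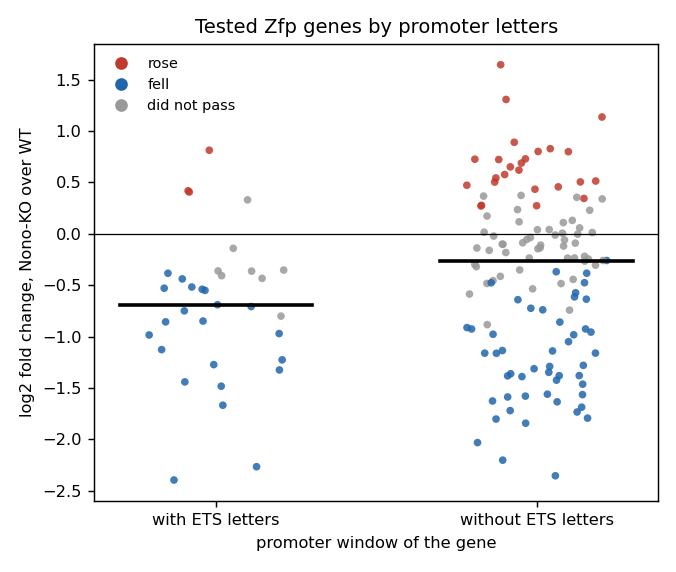
Log2 fold change of Nono-KO over WT (vertical axis) of the 161 tested Zfp genes with a promoter in the table, split by whether the 300-base window holds the ETS letters (left, 33 genes) or not (right, 128 genes), with each gene a point coloured by its call and spread sideways at random. Black bars are medians, -0.69 with the letters and -0.26 without.

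A separate list of 37 corepressor and heterochromatin genes, all tested, was also read. It holds the partners of KRAB zinc fingers along with other genes not known as such. Of these, 24 fell and 6 rose, 7 gave no call, and the list had a median log2 fold change of -0.42, where 38.1% of all tested genes fell and 34.2% rose, with a median of -0.05. The central corepressor and its methyltransferase moved apart. Trim28, which binds KRAB domains directly, rose, with 564, 556 and 483 CPM in Nono-KO cells, against 392.5, 348 and 437 CPM in WT cells (log2 fold change 0.45, standard error 0.10, adjusted p = 0.0017 from edgeR). Setdb1, which methylates histone H3 on lysine 9, fell, with 29.5, 28.1 and 29.2 CPM in Nono-KO cells, against 45, 45 and 46.1 CPM in WT cells (log2 fold change -0.65, standard error 0.09). Atf7ip, the partner that stabilises Setdb1, had 29.8, 32.6 and 33.4 CPM in Nono-KO cells, against 58.2, 62.8 and 66.5 CPM in WT cells (log2 fold change -0.97). None of the groups of these 3 genes overlapped.

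The largest falls of the list were in relatives of Trim28 and in Morc3. Trim24 had 2.75, 1.78 and 2.22 CPM in Nono-KO cells, against 15.3, 14.8 and 13.9 CPM in WT cells (log2 fold change -2.70, standard error 0.18, adjusted p = 2.52e-07 from edgeR). Morc3 (-1.95) and Trim33 (-1.64) also fell. The HUSH complex, which silences retroelements with Morc2 and Setdb1, fell in all 3 of its subunits, Pphln1 (-1.01), Tasor (-0.94) and Mphosph8 (-0.87), as did Morc2 (-1.11). The groups of Mphosph8 overlapped, with 2.46, 2.23 and 4.13 CPM in Nono-KO cells, against 3.78, 6.95 and 5.45 CPM in WT cells. Among DNA methyltransferases Dnmt3b (-1.25), Dnmt3a (-0.64) and Dnmt1 (-0.63) fell, while Uhrf1 (0.37), which guides Dnmt1, rose. The histone methyltransferase Ehmt2 rose by 0.81 on the log2 scale, and its partner Ehmt1 fell by 0.42. Of the heterochromatin proteins Cbx5 rose (0.41) and Cbx1 (0.20) and Cbx3 (-0.04) did not pass. The other rises were Mta1 (0.27) and Rex1bd (0.88), which is in the list but is not an established corepressor.

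**Figure D5:**
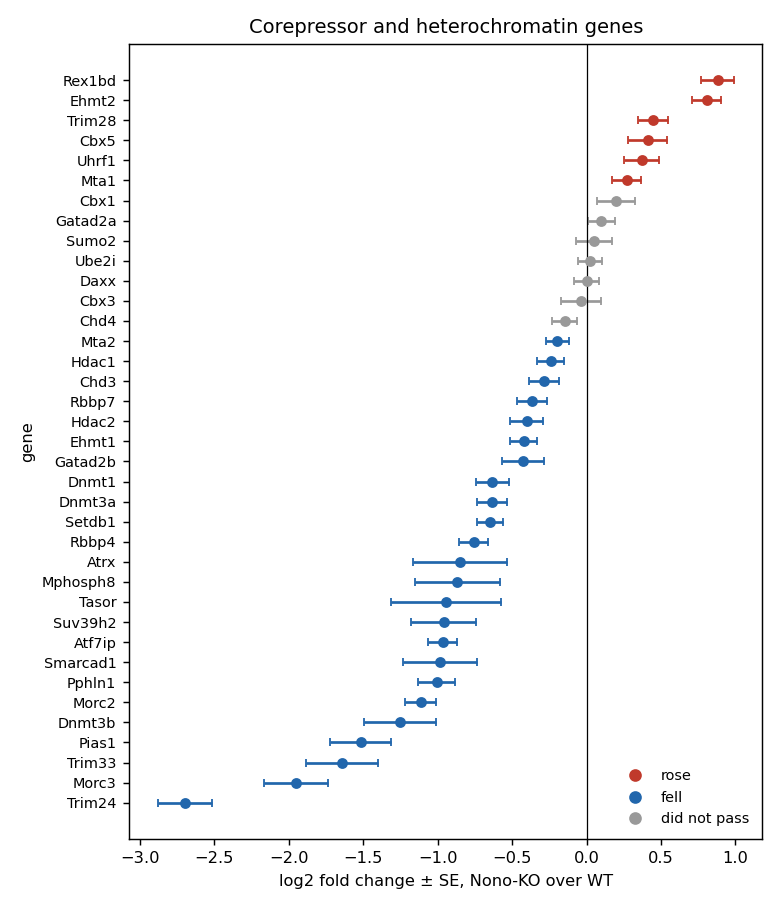
Log2 fold change of Nono-KO over WT with its standard error (horizontal axis) for the 37 corepressor and heterochromatin genes (vertical axis), ordered by change and coloured by call. The points run from -2.70 for Trim24 to 0.88 for Rex1bd, and Trim28 is at 0.45.

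Zinc finger genes under other names gave medians below that of all genes as well, apart from the 5 tested Znf genes, of which 2 rose and 3 did not pass, with a median of 0.16. Over all tested genes 38.1% fell and 34.2% rose. Of 37 tested Zbtb genes, 18 fell and 8 rose, with a median log2 fold change of -0.38, the same as for the Zfp genes. Of 14 Zscan and Zkscan genes, 7 fell and 4 rose, with a median of -0.28. Of 19 tested genes named Klf or Sp and a number, 13 fell and 2 rose, with a median of -0.96. Most of them encode factors that bind GC boxes. The name also took in Sp100 (-1.35), Sp140 (-0.81) and Sp110 (0.24), which are not of that family. Of these, Sp100 and Sp140 fell and Sp110 did not pass. The differences between these groups of names and the Zfp genes were not tested.

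The 34 Zfp genes that were not tested had 1 to 62 counts in total over the 6 libraries. The most counted of them was Zfp799, with 7, 6 and 2 counts in Nono-KO cells, against 18, 22 and 7 counts in WT cells. At this depth a difference between the groups was not detectable in most of these genes. Fits with no filter on low counts, which took in all 226 genes, called 92 falls and 31 rises.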

How the data were processed

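RNA-seq of H9c2 cells was analysed in 3 Nono-KO and 3 WT libraries, grouped by the submitters' labels. The authors deposited raw counts per gene symbol without scaling, 1 column per library, and the single-library files repeat its columns. For alignment, the notes of the submitters list HISAT2 and mRatBN7.2 (with Trimmomatic and HTSeq), whereas Bowtie2 and Rn6 stand in the paper. The counter's annotation or strand option was not given in the sources used here. Thus reads of paralogs, overlapping and antisense genes may be misassigned. The kit marks strand. RNA was tested with the quasi-likelihood test of edgeR 4.0.16 in R 4.3.3 (robust dispersions, TMM, filterByExpr), which kept 12028 of 16319 genes. CPM are scaled by TMM. The size of each log2 fold change over the root of its F statistic gave the standard error. Totals of 17612958 to 19253858 counts leave genes with few counts imprecise.

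The members, lists and motifs were chosen with earlier results of these data known. Named were the 12 largest falls and rises (adjusted p under 0.05, groups apart, at least 1 CPM in the higher group), the 10 members with the most counts, the list by role and the tested members of the 3 longest runs, with a tie kept. Genes chosen by protein sequence were not named, since no protein table was used here. Gene order and promoters came from RefSeq (GRCr8), and the most upstream start was used. Genes farther than 2 places from a run are not reported here. Alternatives were DESeq2 1.42.0, its size factors, total counts, other filters, thinning, glmTreat, the replicate number as a block and leaving out each library. The test was also run on simulated data in which far fewer genes changed than were called here. That run does not cover change as wide as in these libraries.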

Additional observations from a re-analysis of the deposited data

How the results depend on the processing

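Over DESeq2, other scalings and filters, thinning, the replicate block and each library left out, 71 to 92 Zfp genes fell and 29 to 37 rose, against 85 and 33 in the results above, and no Zfp gene called there was called in the opposite direction in any of these 13 analyses. Leaving out a library gave 71 to 88 falls and 29 to 37 rises. DESeq2 called 76 falls and 33 rises, and its size factors in edgeR gave 81 and 37. Testing against a fold threshold instead of filtering on it (glmTreat) left 1 higher DEG, against 4, and 22 lower DEGs, against 45. The glmTreat calls were at an adjusted p under 0.05, and the others at under 0.01. Total counts and no filter each gave 3 higher DEGs. With the replicate number as a block, 84 fell and 32 rose, of which 83 and 32 were among the calls above. Libraries with the same number correlated at 0.06, -0.19 and -0.22 in their deviations from the group means, so that the numbers were not taken as pairs. The scalings moved the median of all genes by at most 0.06 on the log2 scale. Of the 68 tested genes named by rule, 55 kept their call in every analysis that tested them (12 of the 13 for Zfp52 and Zfp866, which the filter at 1 CPM left out), 9 lost it and 4 gained one in at least 1, and 0 reversed. At this depth, fold changes that rest on few counts are imprecise. With other letters or any annotated start in the promoter search, all chosen after seeing the data, 56.9% to 64.7% of Zfp genes with the ETS letters fell, against 37.9% to 43.2% of those without them. These searches largely share the genes from which the ETS letters were singled out. They therefore cannot check that result.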

Other observations

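Zfp genes outside the naming pattern, such as those whose symbol ends in a letter, were not members. Of 16 such genes tested, 10 fell and 4 rose, with a median log2 fold change of -0.61, where 38.1% of all tested genes fell and 34.2% rose. Zfp36l2, whose protein binds AU-rich mRNAs and speeds their decay, fell to 95.3 CPM in Nono-KO cells, against 627 CPM in WT cells (means of 3 libraries each, log2 fold change -2.72), and was named after its values were seen. Of the factors that bind GC boxes, Sp1 averaged 11.4 CPM in Nono-KO cells and 46.3 CPM in WT cells (log2 fold change -2.02), and it was likewise named after its values were seen. Across the 161 tested Zfp genes with a promoter, the rank correlation of level with log2 fold change was 0.34, against 0.11 over 9354 genes of any name. These are correlations across genes, which share the 6 libraries and are not independent, and no p is given.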
